A study of Mus musculus with 24 samples.

Results

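Serotonin receptors are the cell surface proteins through which serotonin, released in the striatum by axons from the raphe nuclei, acts on its target cells. The mouse genes Htr1a, Htr1b, Htr1d, Htr2a, Htr2c, Htr3a, Htr4, Htr5a, Htr6 and Htr7 were taken by symbol from striatal RNA-seq tables that share 24340 genes, and all 10 were found in every table. The RNA came from 24 mice in 4 groups. WT-vehicle (5 libraries) and WT-RGFP109 (6 libraries) were wild type littermates on a C57BL/6J background. R6/1-vehicle (6 libraries) and R6/1-RGFP109 (7 libraries) were hemizygous for the R6/1 transgene, which carries exon 1 of human HTT with an expanded CAG repeat and is used as a model of Huntington's disease. RGFP109, an inhibitor of the histone deacetylases HDAC1 and HDAC3, was injected intraperitoneally at 30 mg/kg, 5 times a week for 3 weeks, and vehicle mice received the solvent. Mice were 11 to 14 weeks old at the first injection and 14 to 17 weeks old when the striatum was taken, 18 h after the last injection.

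All but one of these receptors signal through G proteins. Htr1a, Htr1b, Htr1d and Htr5a couple to Gi/o, which lowers cyclic AMP and opens inward rectifier potassium channels, and Htr1b and Htr1d also act on axon terminals to limit transmitter release. Htr2a and Htr2c couple to Gq and phospholipase C, while Htr4, Htr6 and Htr7 couple to Gs and raise cyclic AMP. Htr3a encodes a subunit of the serotonin-gated cation channel. In the striatum, Htr1b, Htr2c, Htr4 and Htr6 are known from projection neurons, and the choroid plexus of the neighbouring ventricle is a classic site of Htr2c expression.

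Each table compares a pair of groups and gives 1 FPKM value per group (mapped fragments scaled by transcript length and by the mapped total, so a level per length) that pools its libraries. Values of single libraries were not used here, so no spread between mice is given with any value, no test was made, and the depth of the libraries is unknown. Differences are given as log2 ratios of the FPKM values of 1 table after adding 0.05 FPKM. A gene was called higher or lower where this ratio was above 0.5 or below -0.5, a fold of 1.41, in genes over 0.1 FPKM in at least 1 of the groups compared. All 10 receptors passed that minimum in each of the 5 comparisons used. The share of all tested genes called in the same direction is printed beside each count of receptors.

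The promoters of 3 receptors, chosen for their levels and genotype ratios, are shown first. No RefSeq promoter was available here for Htr3a and Htr4. Htr2c and Htr1b had the highest levels and opposite genotype ratios, and Htr2a, the other Gq-coupled receptor, had the lowest genotype ratio in vehicle mice. Each sequence is the 250 bases before the RefSeq start site on GRCm38.p6, read along the strand of the gene, and capitals mark the motifs found in it.
Htr2c, chrX:146962263-146962512, plus strand: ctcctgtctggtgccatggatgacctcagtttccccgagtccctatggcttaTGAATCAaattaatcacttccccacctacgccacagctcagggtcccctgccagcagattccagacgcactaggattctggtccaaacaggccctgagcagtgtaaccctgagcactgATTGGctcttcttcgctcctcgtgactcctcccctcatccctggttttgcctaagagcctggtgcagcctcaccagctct
Htr1b, chr9:81633833-81634082, minus strand: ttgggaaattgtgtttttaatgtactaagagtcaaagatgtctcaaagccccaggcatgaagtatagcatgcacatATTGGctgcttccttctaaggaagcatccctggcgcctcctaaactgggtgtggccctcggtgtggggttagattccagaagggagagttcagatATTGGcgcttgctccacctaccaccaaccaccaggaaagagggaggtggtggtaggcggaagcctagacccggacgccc
Htr2a, chr14:74640624-74640873, plus strand: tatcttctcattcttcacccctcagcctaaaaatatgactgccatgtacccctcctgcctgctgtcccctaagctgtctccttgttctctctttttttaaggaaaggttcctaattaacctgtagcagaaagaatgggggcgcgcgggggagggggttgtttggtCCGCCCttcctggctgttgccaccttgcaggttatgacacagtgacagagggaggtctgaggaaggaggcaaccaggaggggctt

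The motifs were searched as plain letters on both strands of the same window of 32851 RefSeq promoters: the cyclic AMP response element TGACGTCA and its shorter form TGACG, which lies inside it, the GC box GGGCGG, the EGR motif GCGTGGGCG, the AP-1 motif TGANTCA, the CCAAT box CCAAT and the TATA box TATAAA. Htr2c held an AP-1 motif 198 bases before its start site, as did 6.75% of all promoters, and a CCAAT box, in reverse orientation, 80 bases before it. Htr1b held a pair of reversed CCAAT boxes, 174 and 79 bases before the start, against a share of 33.8% of all promoters with at least 1. Htr2a held 1 reversed GC box, 85 bases before the start, a motif found in 32.7% of all promoters. Of the 8 members with a RefSeq promoter in the table, Htr7 alone held the EGR motif (0.536% of all promoters), 95 bases before its start and sharing a base with a reversed TGACG, which 17.8% of all promoters hold. The Htr7 window was 82.0% G or C with 41 CpG dinucleotides, against medians of 52.4% and 6 over all promoters, while Htr2c had 55.6% and 5, Htr1b 52.4% and 6, and Htr2a 52.8% and 4. These matches describe letters in a window and were not tested as binding sites.

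Htr2c and Htr1b were the most highly expressed of the 10 receptors in every group, and their balance differed between the genotypes. Because each table was scaled on its own, a level is given here as the geometric mean of the 3 tables of a group, which differed from each other by a median factor of at most 3.92%. Htr2c stood at 17.3 FPKM in WT-vehicle, 18.8 in WT-RGFP109, 27.8 in R6/1-vehicle and 24.1 in R6/1-RGFP109. Htr1b, the autoreceptor and heteroreceptor of axon terminals, stood at 13.7, 14.9, 7.80 and 5.96 FPKM in the same order. The ratio of Htr2c to Htr1b was thus 1.27 in both wild type groups, 3.56 in R6/1-vehicle and 4.04 in R6/1-RGFP109. Both R6/1 values of Htr2c lay above both wild type values, and both R6/1 values of Htr1b lay below them. The share of all genes whose groups separate in this way was not counted, so the separation is not read as a trait of these genes.

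The other 8 receptors ran from 1.12 FPKM for Htr4 to 4.67 for Htr2a in WT-vehicle, and from 0.635 for Htr4 to 4.06 for Htr5a in R6/1-RGFP109. In WT-vehicle the order below Htr1b was Htr2a, Htr1d, Htr6, Htr3a, Htr5a, Htr1a, Htr7 and Htr4. Only 2 of the 9 steps between neighbours in that order were larger than 1.41-fold, from Htr1b to Htr2a (2.92-fold) and from Htr7 to Htr4 (2.18-fold), so the middle of the order cannot be taken as fixed without a spread between mice. In both R6/1 groups Htr5a, at 4.03 and 4.06 FPKM, came next after Htr1b, and Htr2a, at 2.13 and 2.38 FPKM, ranked 7 of 10. In the wild type groups Htr2a ranked 3 of 10, at 4.67 FPKM in WT-vehicle and 6.06 in WT-RGFP109. Htr4 was last in all 4 groups.

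**Figure D1:**
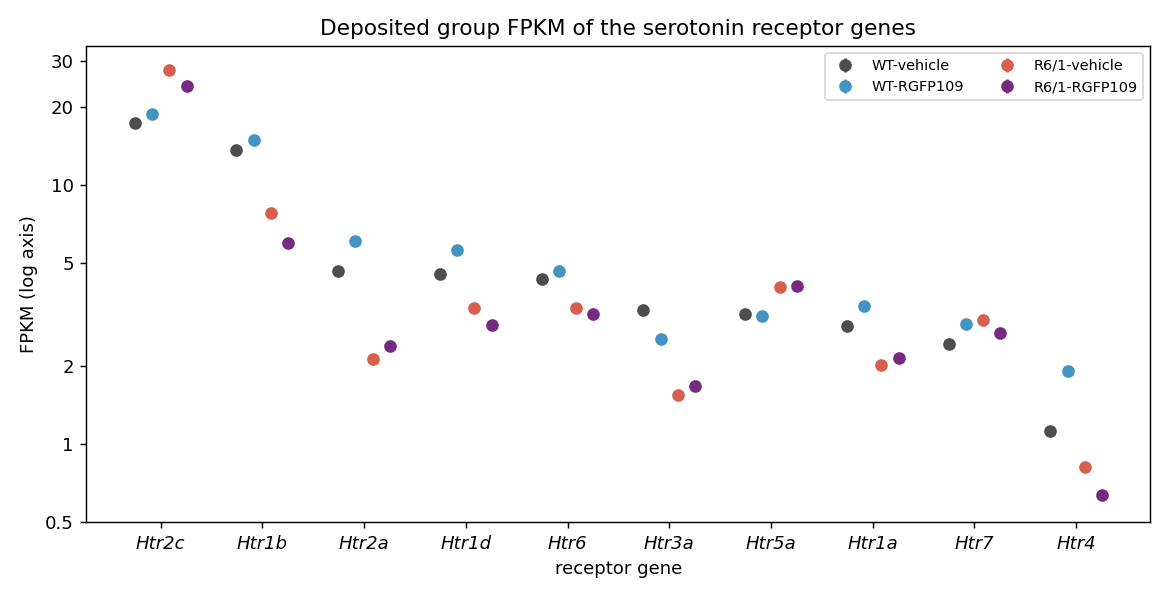
FPKM (log axis) of the 10 receptor genes in the 4 groups, as the geometric mean of the 3 tables of a group. The bars give the range over those tables, which is smaller than the symbols, and do not show the spread between mice. Htr2c was highest in R6/1-vehicle at 27.8 FPKM and Htr4 lowest in R6/1-RGFP109 at 0.635 FPKM.

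Summed over the 10 genes, receptor expression was 57.4 FPKM in WT-vehicle, 64.0 in WT-RGFP109, 55.9 in R6/1-vehicle and 49.7 in R6/1-RGFP109. Htr2c made up 30.2% and 29.4% of that sum in the wild type groups and 49.8% and 48.5% in the R6/1 groups. Without Htr2c the sums were 40.1, 45.1, 28.1 and 25.6 FPKM in the same order. The share of Htr1b was 23.8% in WT-vehicle and 14.0% in R6/1-vehicle, and that of Htr2a was 8.14% and 3.81%.

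**Figure D2:**
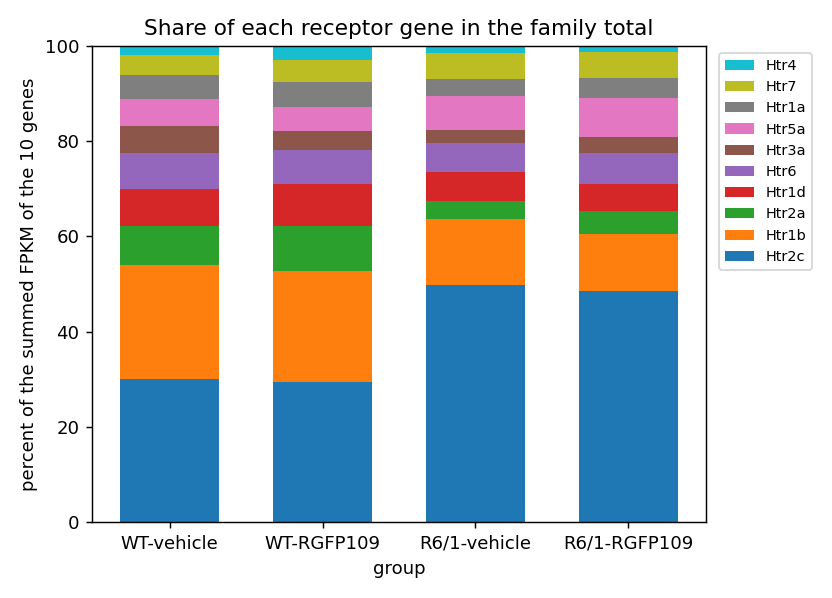
Percent of the summed FPKM of the 10 receptor genes that each gene takes, for the 4 groups on the horizontal axis. The lowest segment, Htr2c, covers 30.2% in WT-vehicle and 49.8% in R6/1-vehicle.

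The first comparison asked how the receptors differ between R6/1 and wild type mice that received vehicle. Of the 10 receptors, 4 were called lower in R6/1-vehicle (Htr2a, Htr3a, Htr1b and Htr1a), against 13.4% of all 16972 genes tested, and 1 was called higher (Htr2c), against 5.84%. Their median log2 ratio was -0.46, and that of all genes tested was -0.019. In mice that received RGFP109, 7 receptors were called lower in R6/1 (those 4 with Htr4, Htr1d and Htr6), against 11.7% of 16954 genes, and none was called higher, against 5.39%. The median there was -0.65, and that of all genes 0.00013. Among genes between 1 and 10 FPKM, where 8 of the receptors lie in WT-vehicle, 12.3% were lower and 6.21% higher in vehicle mice, and 10.6% and 5.89% in RGFP109 mice. Since striatal tissue was sequenced in bulk, fewer cells of a type and less RNA per cell cannot be told apart.

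The vehicle and RGFP109 comparisons of the genotypes share no library. A ratio of the same sign in both was found for 9 of the 10 receptors, against 80.4% of the 16662 genes measured in both. Of the receptors 7 lay below 0 in both, as did 6866 of those 16662 genes. Htr1a, Htr1b, Htr2a and Htr3a were called lower in both, which is 4 of 10 receptors and 7.74% of all genes. Htr7 was the exception in sign, and no receptor was called higher in both, against 2.30% of all genes.

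**Figure D3:**
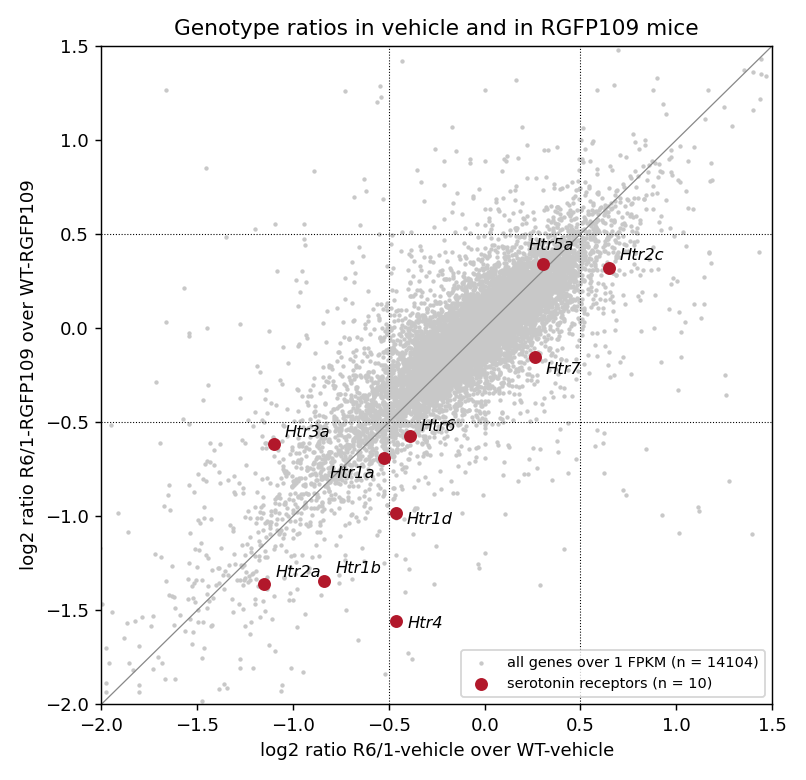
Log2 ratio of R6/1 over wild type in vehicle mice (horizontal axis) and in RGFP109 mice (vertical axis), with 10 receptors in red and 14104 genes over 1 FPKM in grey. Dotted lines mark ratios of -0.5 and 0.5, the diagonal marks equal ratios, and 415 genes beyond the axes are not drawn. Of the receptors, 7 lie below 0 on both axes, and Htr2c and Htr5a above 0 on both.

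Among the Gi/o-coupled receptors, 3 of 4 had lower values in R6/1 mice under both treatments. Htr1b (chr9:81631392-81645156 in the tables, on mm10) was at 13.8 FPKM in WT-vehicle and 7.71 in R6/1-vehicle, a log2 ratio of -0.84. In RGFP109 mice it was at 15.1 and 5.91 FPKM, a log2 ratio of -1.34. The interval printed for Htr1b is a locus that the tables join from neighbouring transcripts and runs past the gene, which GENCODE places at chr9:81628291-81633828. An antisense gene, D430036J16Rik, overlaps its exons, and the strand setting of the counting is not given in the sources used here, so reads of this pair cannot be told apart. D430036J16Rik was at 4.95 FPKM in WT-vehicle, 5.27 in WT-RGFP109, 3.27 in R6/1-vehicle and 3.29 in R6/1-RGFP109.

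Htr1d (chr4:136423524-136444401), like Htr1b a receptor of axon terminals, was at 4.59 FPKM in WT-vehicle and 3.31 in R6/1-vehicle. Its log2 ratio of -0.47 in vehicle mice did not reach the fold. In RGFP109 mice Htr1d was at 5.70 and 2.86 FPKM, a log2 ratio of -0.98. Htr1a (chr13:105443693-105448133), the autoreceptor of raphe neurons that is also found on cortical and hippocampal neurons, was at 2.89 and 1.99 FPKM in vehicle mice, with a log2 ratio of -0.53. That call lies close to the fold: it was -0.49 from levels averaged over tables and -0.38 after adding 1 FPKM. In RGFP109 mice Htr1a was at 3.46 and 2.12 FPKM, with a log2 ratio of -0.69. Htr5a (chr5:27841947-27855086) went the other way and stayed within the fold, at 3.21 and 3.98 FPKM in vehicle mice (0.31) and 3.17 and 4.03 in RGFP109 mice (0.34).

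The Gq-coupled pair had opposite genotype ratios. Htr2a (chr14:74640840-74706859), best known from cortical pyramidal cells, was at 4.72 FPKM in WT-vehicle and 2.10 in R6/1-vehicle, a log2 ratio of -1.15. In RGFP109 mice it was at 6.15 and 2.36 FPKM, a log2 ratio of -1.36. Of all genes tested, 3.31% had a ratio lower than that of Htr2a in vehicle mice and 2.10% in RGFP109 mice. Htr2c (chrX:146962513-147197277) was at 17.5 FPKM in WT-vehicle and 27.4 in R6/1-vehicle, a log2 ratio of 0.65, and 3.61% of genes had a higher one. In RGFP109 mice Htr2c was at 19.1 and 23.9 FPKM, and its log2 ratio of 0.32 was within the fold. The level of Htr2c over that of Htr2a was 3.71 in WT-vehicle, 3.10 in WT-RGFP109, 13.1 in R6/1-vehicle and 10.1 in R6/1-RGFP109.

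The Gs-coupled receptors were within the fold in vehicle mice. Htr4 (chr18:62324204-62467802) was at 1.13 FPKM in WT-vehicle and 0.809 in R6/1-vehicle, a log2 ratio of -0.46. In RGFP109 mice it was at 1.95 and 0.629 FPKM, and its log2 ratio of -1.56 was the lowest of the 10 receptors there. Htr6 (chr4:139061409-139074789), a receptor found mainly in the striatum and cortex, was at 4.38 and 3.33 FPKM in vehicle mice, with a log2 ratio of -0.39. In RGFP109 mice Htr6 was at 4.71 and 3.15 FPKM and its log2 ratio was -0.58, or -0.46 after adding 1 FPKM. Htr7 (chr19:35958729-36057360), known for its part in circadian and thalamic signaling, was at 2.47 and 2.97 FPKM in vehicle mice (0.26) and at 2.96 and 2.65 FPKM in RGFP109 mice (-0.16).

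Htr3a (chr9:48899213-48911099), the channel subunit and a marker of a class of cortical interneurons, was at 3.32 FPKM in WT-vehicle and 1.53 in R6/1-vehicle. Its log2 ratio of -1.10 was second to that of Htr2a. In RGFP109 mice Htr3a was at 2.58 and 1.67 FPKM, a log2 ratio of -0.62 that became -0.42 after adding 1 FPKM. Htr3a was the receptor whose genotype ratio was nearer to 0 under RGFP109 by the largest amount, with a difference of 0.48, while that of Htr4 was further from 0 by 1.10 on the log2 scale. These differences between comparisons have no replicate error and were not tested.

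The next comparisons asked what RGFP109 did within each genotype. In R6/1 mice no receptor was called, against 2.62% of 16840 genes called higher and 3.14% called lower. The receptor ratios there ran from -0.39 for Htr1b to 0.16 for Htr2a, with a median of -0.13 against 0.0012 for all genes. Htr1b was at 7.97 FPKM in R6/1-vehicle and 6.08 in R6/1-RGFP109, and 4.58% of all genes had a lower ratio. Htr2c, at 28.4 and 24.6 FPKM, had a log2 ratio of -0.21, and Htr4, at 0.839 and 0.649 FPKM, had one of -0.35. Htr2a, at 2.18 and 2.43 FPKM, and Htr3a, at 1.58 and 1.72 FPKM, had ratios of 0.16 and 0.12.

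In wild type mice 1 receptor, Htr4, was called higher with RGFP109, against 3.19% of 16957 genes, and none was called lower, against 4.92%. Htr4 was at 1.10 FPKM in WT-vehicle and 1.88 in WT-RGFP109, a log2 ratio of 0.75 that came within the fold, at 0.46, after adding 1 FPKM. The other ratios ran from -0.36 for Htr3a, at 3.21 and 2.48 FPKM, to 0.37 for Htr2a, at 4.56 and 5.92 FPKM. Htr1d, at 4.44 and 5.48 FPKM, had a log2 ratio of 0.30. The median of the 10 was 0.18, against -0.0063 for all genes, and 8 of the 10 ratios lay above 0, as did 48.0% of all genes.

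The treatment comparisons of the genotypes share no library either. Htr1b, Htr1d, Htr2c, Htr4, Htr6 and Htr7 had ratios above 0 in wild type mice and below 0 in R6/1 mice. Htr3a and Htr5a had the reverse, and Htr1a and Htr2a lay above 0 in both. Of all genes, 48.0% had ratios above 0 in wild type mice and 50.6% in R6/1 mice. The share of all genes with opposite signs was not counted, so these signs are not read as a trait of the receptors. For Htr4 the R6/1 ratio was 1.10 below the wild type ratio, for Htr1d 0.52 and for Htr1b 0.51 on the log2 scale. Such a difference is the same contrast of the 4 groups as that between the genotype ratios above, so it is not a separate result. All treatment ratios but that of Htr4 in wild type mice were within the fold, so most of their signs rest on small ratios whose error is unknown.

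**Figure D4:**
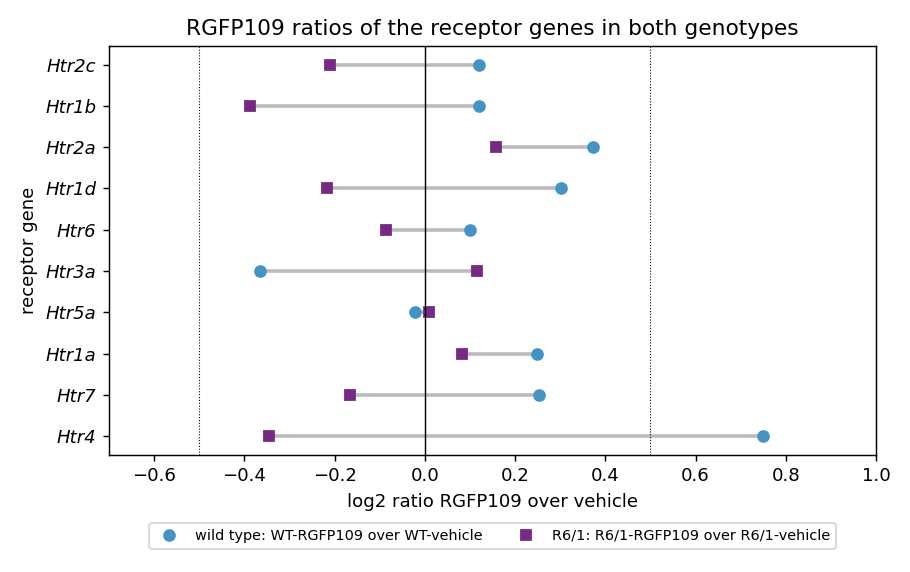
Log2 ratio of RGFP109 over vehicle for the 10 receptor genes, in wild type mice (circles) and in R6/1 mice (squares), with the grey line joining the values of a gene. Dotted lines mark -0.5 and 0.5. Only Htr4 in wild type mice, at 0.75, lies outside them.

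Treated R6/1 mice were last set against WT-vehicle, which shares its libraries with the comparisons above. Of the 10 receptors 5 were called lower, Htr1b (-1.22), Htr2a (-0.99), Htr3a (-0.98), Htr4 (-0.81) and Htr1d (-0.68), against 13.8% of 16982 genes, and none was called higher, against 5.42%. Their median was -0.58, against -0.016 for all genes. Htr4 was at 1.14 FPKM in WT-vehicle and 0.628 in R6/1-RGFP109, and its ratio was -0.39 after adding 1 FPKM. For Htr2c, the values were 17.6 and 23.8 FPKM, a log2 ratio of 0.44. Htr2a was at 4.73 and 2.36 FPKM and Htr1b at 13.8 and 5.90 FPKM.

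Markers of tissue next to the striatum and of its cell types differed between the groups, and their sums are given beside the receptors known from the same cells. Their counts of lower calls stand against 13.4% of all genes in vehicle mice and 11.7% in RGFP109 mice between the genotypes, and against 3.14% in R6/1 mice and 4.92% in wild type mice with RGFP109. The choroid plexus list of 13 genes, among them Ttr, Kl and Folr1, summed to 1488 FPKM in WT-vehicle, 323 in WT-RGFP109, 648 in R6/1-vehicle and 42.4 in R6/1-RGFP109. In vehicle mice 12 of its 13 genes were called lower in R6/1, where Htr2c was higher. The ratios of the list ran from -1.51 for Aqp1 to -0.09 for Clic6, which was within the fold. With RGFP109 all 13 were called lower in R6/1 mice, from -4.33 for Ttr to -0.61 for Clic6, and Htr2c had a ratio of -0.21. All 13 were called lower in wild type mice too, from -2.24 for Ttr to -0.52 for Clic6, and Htr2c had a ratio of 0.12. None of the 13 was listed at 0 in any group, and the part of choroid plexus RNA in the Htr2c values was not tested.

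The neocortex list of 9 genes summed to 474 FPKM in WT-vehicle, 448 in WT-RGFP109, 280 in R6/1-vehicle and 328 in R6/1-RGFP109. In vehicle mice 8 of the 9 were called lower in R6/1, with a median of -0.75 for the list, where Htr2a was at -1.15. The ratios of the list ran from -1.23 for Fezf2 to -0.42 for Lamp5, which was within the fold. In RGFP109 mice 2 of the 9 were called lower, the lowest being Nrn1 at -0.75, with a median of -0.16, where Htr2a was at -1.36. None of the 9 was at 0, and the part of cortical RNA in the values of Htr2a, Htr1a and Htr5a was not tested.

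Of 8 interneuron markers, 7 were called lower in R6/1 in vehicle mice, from -2.05 for Vip to -0.13 for Lhx6, and 7 in RGFP109 mice, from -1.75 for Chat to -0.41 for Lhx6. Their sums were 971, 940, 524 and 518 FPKM in WT-vehicle, WT-RGFP109, R6/1-vehicle and R6/1-RGFP109, and Htr3a was lower in both R6/1 groups. Markers of indirect pathway projection neurons summed to 1421, 1389, 394 and 353 FPKM in that order, with 5 of 6 called lower in both genotype comparisons, from -2.01 for Penk to -0.02 for Sp9 in vehicle mice. Those of direct pathway neurons summed to 356, 405, 310 and 288 FPKM, with 1 of 5 called lower in vehicle mice (Drd1, -0.99) and 1 called higher (Isl1, 0.67). In RGFP109 mice 2 of these 5 were called lower, from -1.21 for Drd1 to 0.41 for Isl1. Oligodendrocyte markers summed to 4364, 3406, 2512 and 2828 FPKM, with 3 of 5 called lower in R6/1 in vehicle mice, from -0.91 for Mbp to -0.40 for Mog, and none in RGFP109 mice. No gene of these lists was at 0, Penk was at 1102 FPKM in WT-vehicle, and the part of cell numbers in the receptor values was not tested.

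**Figure D5:**
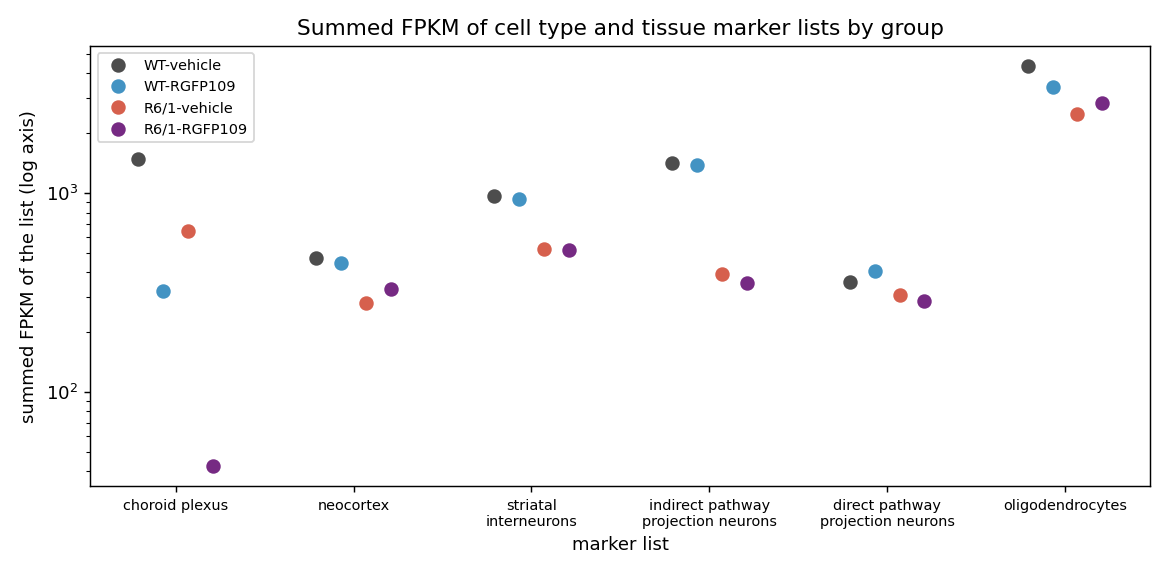
Summed FPKM (log axis) of 6 marker lists in the 4 groups, each point 1 group. Choroid plexus markers run from 1488 FPKM in WT-vehicle to 42.4 in R6/1-RGFP109, and indirect pathway markers are at 394 and 353 FPKM in the R6/1 groups against 1421 and 1389 in the wild type groups.

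Genes with a profile most like those of the 4 receptors called lower in both genotype comparisons were read from the root mean square difference over the 4 groups, on log2(FPKM + 0.05) centred on each gene. Among 14103 other genes over 1 FPKM in at least 1 group, the closest to Htr2a were Dok3 (0.029), Adam8 (0.043) and Ciart (0.044). Dok3, an adaptor of tyrosine kinase signaling, stood at 5.44, 7.26, 2.42 and 2.84 FPKM in WT-vehicle, WT-RGFP109, R6/1-vehicle and R6/1-RGFP109. Closest to Htr1b were Adam33 (0.040), Slc17a8 (0.051) and Jsrp1 (0.052). Slc17a8, the vesicular glutamate transporter of striatal cholinergic interneurons and of a part of the serotonin neurons, stood at 2.71, 2.71, 1.501 and 1.17 FPKM. Only 13 genes lay within 0.1 of Htr2a and 19 within 0.1 of Htr1b.

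Htr3a was closest to Ier2 (0.023), Junb (0.029) and Dusp1 (0.040), all of them immediate early genes that neuronal activity induces. Junb, a subunit of AP-1, stood at 55.9, 44.2, 28.0 and 30.4 FPKM in the order above, and Ier2 at 4.93, 3.93, 2.33 and 2.49 FPKM. In total 72 genes lay within 0.1 of Htr3a. Htr1a was closest to Cxcl14 (0.025), Rnf223 (0.027) and Crhr1 (0.029), with 185 genes within 0.1. Crhr1, the receptor of corticotropin releasing hormone, stood at 6.86, 8.50, 5.02 and 5.12 FPKM. With only 4 points per gene, these distances describe likeness in these tables and nothing more.

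The serotonin receptors outside the list were scarce. Htr1f, a Gi/o-coupled receptor, stood at 0.844, 1.05, 0.810 and 0.876 FPKM in WT-vehicle, WT-RGFP109, R6/1-vehicle and R6/1-RGFP109. Htr5b stood at 0.671, 0.459, 0.232 and 0.199 FPKM in that order and was called lower in both genotype comparisons, with log2 ratios of -1.38 and -1.06. It was also just past the fold with RGFP109 in wild type mice, at -0.50. Htr2b lay between 0.058 and 0.10 FPKM and Htr3b, the partner subunit of Htr3a, between 0.024 and 0.059 FPKM.

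Genes for serotonin synthesis, transport and breakdown had no call between the genotypes in vehicle mice and some in the other comparisons. Of the 10, 8 passed the minimum. In vehicle mice, where their median was 0.0040, the shares of all genes called were 13.4% lower and 5.84% higher. In RGFP109 mice 2 of the 8 were called lower, against 11.7%, and none higher, against 5.39%. With RGFP109, 1 was called lower in R6/1 mice, against 3.14%, and none higher, against 2.62%. In wild type mice 2 were called lower with RGFP109, against 4.92%, and 1 higher, against 3.19%. Maoa and Maob, the enzymes that break serotonin down, had genotype ratios of 0.30 and -0.02 in vehicle mice and 0.19 and -0.07 in RGFP109 mice. Ddc, the decarboxylase of serotonin and dopamine synthesis, had 0.03 and 0.31, and the vesicular transporter Slc18a2 0.14 and -0.13. Of the low-affinity uptake transporters, Slc22a3 had -0.46 and was called lower in RGFP109 mice at -1.01, from 2.99 to 1.46 FPKM, while Slc29a4 had -0.20 and 0.04.

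The defining genes of serotonin neurons, whose cell bodies lie outside the striatum, were near 0. Slc6a4, the serotonin transporter, was at most at 0.0802 FPKM in any group, and Fev, their transcription factor, was at most at 0.0401 FPKM and was listed at 0 in both RGFP109 groups. Tph2, the neuronal form of tryptophan hydroxylase, lay between 0.322 and 0.496 FPKM, with genotype ratios of -0.45 and 0.15, and was called lower with RGFP109 in wild type mice at -0.55. Tph1, the form of peripheral tissue and pineal gland, lay between 0.091 and 0.27 FPKM. Its ratios were 0.40 and -1.21 between the genotypes and -0.75 and 0.86 with RGFP109 in R6/1 and wild type mice. Slc29a4 was called lower with RGFP109 in wild type mice at -0.60, and it is also a choroid plexus transporter.

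For the genes downstream of the receptors, counts of lower calls are to be read against 13.4% of all genes in vehicle mice and 11.7% in RGFP109 mice. Of 10 genes of the Gs and cyclic AMP arm, 4 were called lower in vehicle mice and 2 in RGFP109 mice, with medians of -0.35 and -0.33 against -0.019 and 0.00013 for all genes. Called in both were Adcy5, the main adenylyl cyclase of the striatum (-1.18 and -1.24), and Gng7, the G protein subunit that works with it (-0.74 and -0.70). Of 9 genes of the Gi/o arm, which holds inhibitory G proteins and potassium channels, 1 was called lower in each comparison, Kcnj9 (-0.58) in vehicle mice and Kcnj5 (-0.53) in RGFP109 mice, with medians of -0.04 and 0.05, a count near that share. Of 10 genes of the Gq arm, 3 were called lower in each, and Itpr1, the calcium release channel of the endoplasmic reticulum, was called in both (-0.83 and -0.78). The medians of that arm were -0.32 and -0.26.

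Receptor partners had 2 of 8 genes called lower in both genotype comparisons, S100a10 and Dlg4, against 7.74% of all genes. S100a10, the p11 protein that binds Htr1b and Htr4, was at 43.9 FPKM in WT-vehicle and 29.8 in R6/1-vehicle, a log2 ratio of -0.56. In RGFP109 mice it was at 44.3 and 31.2 FPKM, with a ratio of -0.51. Dlg4, the postsynaptic scaffold that binds Htr2a and Htr2c, had ratios of -0.64 and -0.53. Adarb1, an editing enzyme of the Htr2c transcript, was within the fold at -0.11 and -0.46. No gene of the Gs, Gi/o, Gq or partner lists was called with RGFP109 in either genotype. The shares of all genes were 2.62% higher and 3.14% lower in R6/1 mice, and 3.19% and 4.92% in wild type mice. Among genes between 10 and 50 FPKM they were 1.31% and 1.24%, and 1.42% and 1.28%. None of the lists held a gene called higher in R6/1, against 5.84% of all genes in vehicle mice and 5.39% in RGFP109 mice.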

How the data were processed

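Total striatal RNA of 24 mice was sequenced as single reads. The authors aligned them with STAR 2.5.0b to RefSeq transcripts of mm10, estimated FPKM values with Cufflinks 2.2.1 and compared each pair of groups with Cuffdiff 2. The authors deposited 6 tables with 1 FPKM value per group, their log2 fold change, test statistic, p-value and q-value. Only the FPKM values were used here, and those columns of the authors' own comparisons were not. Libraries of a group were pooled in its value and values of single libraries from other sources were not used, so no spread, test or depth is given here. The pooling of libraries in sequencing runs was not analysed here.

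Genes with finite values in all tables were kept (24340 of 24341). Log2 ratios were formed within the table of a pair after adding 0.05 FPKM, a minimum of 0.1 FPKM in either group was asked, and an absolute ratio above 0.5 counted as a call. The pseudocount and the minimum of 0.1 FPKM are those that the study used in its gene set enrichment analysis. The ratio of 0.5 is that of its differential expression, whose q-value threshold was not applied. The calculation of ratios and calls was tested on simulated data with known ratios. Table positions were given 1 added to the start. Gene models were those of GENCODE on GRCm38, the sequence of mm10, and promoters those of RefSeq on GRCm38.p6. Promoter windows of 8 receptors were used.

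Named were all 10 receptors, genes of the pathway lists called in both genotype comparisons, all genes of the lists on other serotonin receptors and on synthesis, transport and breakdown, the extremes of marker lists (1 of which is not reported here), and the 3 genes nearest in profile. Kcnj9, Kcnj5, Adarb1 and D430036J16Rik were named after their values were seen. The receptors and all gene lists were chosen with earlier results of these data known. Alternatives were a pseudocount of 1 or 0.01 FPKM, a minimum of 1 FPKM or none, an absolute log2 ratio of 1, centring on the median and levels averaged over tables. Python 3.11.15, numpy 2.4.6, pandas 2.3.3 and matplotlib 3.10.9 were used.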

Additional observations from a re-analysis of the deposited data

How the results depend on the processing

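At an absolute log2 ratio of 1, the receptors called between the genotypes numbered 2 in vehicle mice and 3 in RGFP109 mice, all lower. The shares of all genes called at that ratio were 4.4% lower and 1.7% higher in vehicle mice, and 3.7% and 1.6% in RGFP109 mice. With RGFP109 in wild type mice 0 receptors were called, against 1.8% of all genes lower and 1.5% higher. In treated R6/1 mice against WT-vehicle 1 was called lower, against 4.4% of all genes, and none higher, against 1.7%. After adding 1 FPKM, no receptor was called with RGFP109 in wild type mice, against 1.21% of genes higher and 1.39% lower. Every other count stayed within 1.5 times its main value under the alternatives run. Of 200 values of single receptors under 4 alternatives, 194 kept their side of the fold, 6 came within it and none changed sign. Those 6 were Htr1a in vehicle mice, under both the larger pseudocount and averaged levels, and, under the larger pseudocount, Htr3a and Htr6 between the genotypes in RGFP109 mice, Htr4 in wild type mice and Htr4 in treated R6/1 mice against WT-vehicle. The absence of sign changes says little, because a pseudocount added to both groups cannot change a sign. Centring moved ratios by at most 0.0095. The order of levels was the same in the table of each genotype pair alone. That was nearly given in advance, since the tables of a group differ by a nearly constant factor. No paired analysis was possible because the tables used here hold 1 pooled value per group and no test was made. No library was left out in turn, since values of single libraries were not used here. Whether a ratio exceeds the spread between mice was not tested.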
